A study of Drosophila melanogaster with 2 samples.

Results

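The 10 genes described here belong to the Dpp signalling pathway of Drosophila melanogaster and were examined in whole embryos for peaks of CG17568, which is thought to be a zinc finger protein. They are shn, dpp, gbb, sog, tkv, put, Mad, Med, Dad and brk, 10 of 13968 annotated protein-coding genes. The members are genes of this pathway that were selected on these data, with their summit counts and signals in view. Their counts, densities and ranks are therefore descriptions, and no test is attached to them. Each gene was given a window from 2000 bp before to 2000 bp after its body, and all peak summits in that window were counted. The embryos were of mixed sex, aged 0 to 20 h, from a transgenic line that stably carries CG17568 with GFP at its C terminus. There was 1 group of 2 biological replicates, with sonicated fragments of 200 to 800 bp. An untagged or control library was not analysed here, and the labels used do not give the promoter that drives the fusion. Whole embryos pool all cell types and stages of that span, so a peak does not say in which cells it arose. The labels name both samples as transcription factor ChIP-seq and also as input controls. They were read as ChIP, and all values hold only under that reading.

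Dpp is the fly counterpart of vertebrate BMP2 and BMP4, and it patterns the dorsal embryo and later the wing as a graded signal. Dpp and its relative Gbb bind the type I receptor Tkv and the type II receptor Put, while the chordin homologue Sog binds the ligand outside the cell and carries or withholds it. The receptors phosphorylate the Smad protein Mad, which enters the nucleus with Med. Mad and Med recruit the zinc finger protein Shn to silencer elements and so shut down brk, whose product represses Dpp target genes. Dad is an inhibitory Smad that is itself induced by the signal.

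The deposited data were 4 peak lists on dm6. The list thresholded by the irreproducible discovery rate (IDR) held 3396 peaks, and the relaxed lists of replicate 1, replicate 2 and both replicates pooled held 30000 each. Signal, the authors' score for a peak, ran from 127 to 3471.7 in the IDR list with a median of 188, and rank 1 is the highest signal of a list. All 3396 IDR peaks were the highest of the pooled list. The lists carry no read counts, so the depth behind a peak is unknown.

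IDR summits were found at 8 of the 10 genes, and nearly as many lay in shn as in all the others. The 10 windows held 24 IDR summits, of which 11 (45.8%) were in shn, 3 each in tkv, sog and Dad, and 1 each in dpp, Mad, Med and brk. The windows of put and gbb held none. Among all protein-coding genes, 20.7% had an IDR summit in a window drawn the same way. Long genes carry more summits, and the members are long, with a median window of 19 kb against 6.16 kb for all protein-coding genes. In windows under 10 kb, 14.9% of genes had an IDR summit, as did 2 of the 3 members of that size, brk and Med but not gbb. From 10 to 30 kb the share was 38.0% of genes, and Mad and Dad had one while put did not. From 30 kb upwards it was 54.3% of genes and all 4 members, namely shn, dpp, tkv and sog. The summits of brk and Med lay outside the gene bodies, and without the 2000 bp flanks 6 of the 10 genes held an IDR summit. The share of all genes without flanks is not given here.

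**Figure D1:**
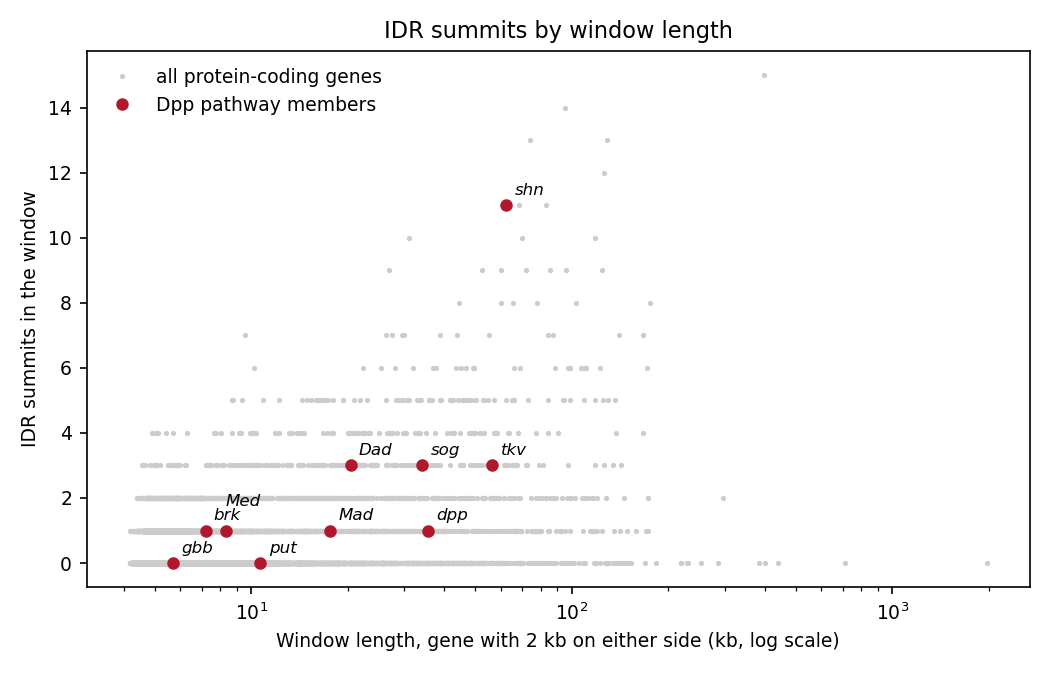
Number of IDR summits in the window (vertical axis) against window length in kb (horizontal axis, log scale) for every protein-coding gene in grey, with the 10 members in red. The point for shn, with 11 summits in 62.3 kb, sits near the upper edge of the cloud, while the other members have 0 to 3.

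Per 10 kb of window the density of IDR summits was 1.77 in shn, 1.47 in Dad, 1.39 in brk and 1.20 in Med. It was 0.878 in sog, 0.569 in Mad, 0.532 in tkv and 0.282 in dpp, against a mean of 0.254 over the chromosome arms with peaks. The density of shn was thus 6.96 times that mean and that of dpp 1.11 times. Among all protein-coding genes, 1036 (7.42%) had a denser window than shn, while 10.4% were denser than Dad, 12.8% denser than Med and 19.6% denser than dpp. Only 20.7% of genes had any IDR summit, so dpp was among the least dense of those. A single summit gives a high density in a short window, and Med and brk each held 1, in 8.33 and 7.19 kb. Over all 10 windows the density was 0.930 per 10 kb, and 0.664 without shn. When the 3396 highest peaks of each replicate were counted instead, shn kept a high density in both (1.93 in replicate 1 and 2.09 in replicate 2). The values of dpp, Mad, sog and brk were the same in both replicates. Med had 0 in replicate 1 and 2.40 in replicate 2, and tkv, Dad, put and gbb also differed between the replicates, each by 1 or 2 summits.

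**Figure D2:**
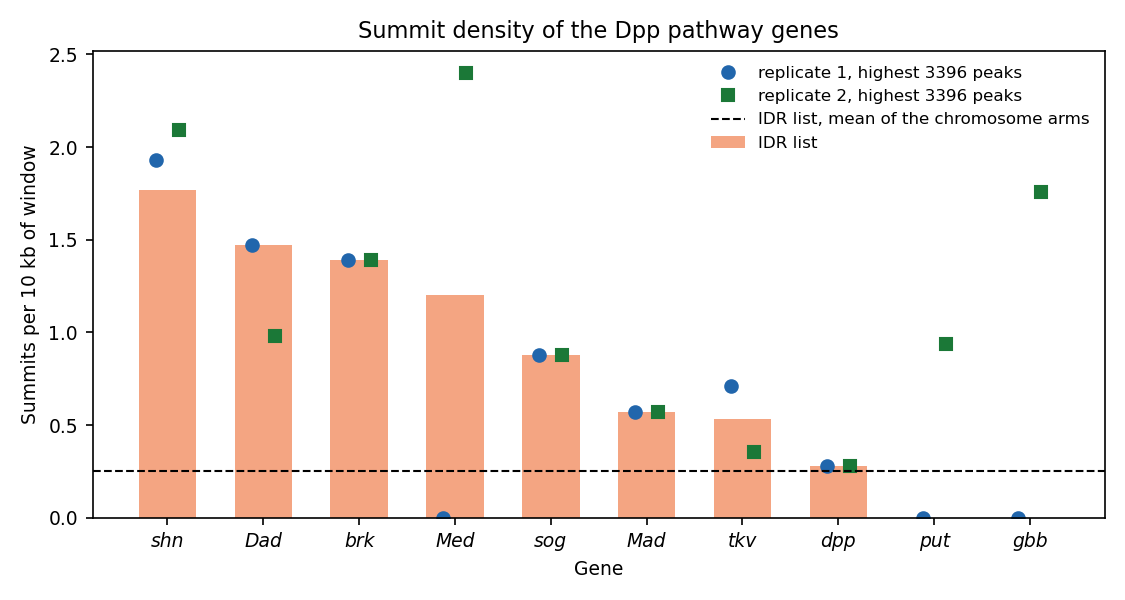
Summits per 10 kb of window for the 10 genes, ordered by the IDR list (bars), with the 3396 highest peaks of replicate 1 (circles) and replicate 2 (squares); the dashed line is the IDR mean of 0.254 over the chromosome arms. Bars and both symbols are at the same height for dpp, Mad, sog and brk and close together for shn. Med, put and gbb are at 0 in replicate 1 and above 0.9 in replicate 2.

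The gene shn (FBgn0003396, 2R from 11159086 to 11217394, plus strand) spans 58.3 kb and has 5 annotated transcription start sites (TSSs). It held 11 IDR summits among 47 pooled summits, so 23.4% of its pooled summits were in the IDR list, against 11.3% over the whole pooled list. Only 5 protein-coding genes had more IDR summits in their window. Of the 364 genes with a window over 50 kb, 0 had a denser set of IDR summits than shn, and the median gene with a window at least as long held 1. Of the 11 summits 10 were intronic and 1 lay in a 5′ UTR. The coding exons at the 3′ end of the gene held no IDR summit, and the last pooled summit was 46333 bp from the first TSS.

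The highest shn site was at 11173622, 181 bp upstream of the second TSS and within the first intron of transcript shn-RE. Its signal was 763 (rank 109 of 3396), with rank 131 in replicate 1 and rank 82 in replicate 2. The next was at 11184572, 1348 bp downstream of the third TSS, with a signal of 464 (rank 312) and ranks of 263 and 414 in the replicates. Both sites were thus among the highest of each replicate. The third, at 11202826 and 1803 bp upstream of the last TSS, had a signal of 318 (rank 648) and ranked 497 in replicate 1 and 1141 in replicate 2. The first TSS, at 11159086, had no IDR summit within 500 bp, and the same was true of the third and the last TSS.

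A run of 6 further shn sites lay around the fourth TSS at 11198276, with summits at 11194907, 11195861, 11196078, 11197072, 11198325 and 11199460. Neighbours in this run were 217 to 1253 bp apart. Their signals ran from 147 to 276, and the site nearest the TSS, 49 bp downstream of it in the 5′ UTR, had the lowest, at rank 2619. The run therefore consisted of closely spaced peaks of differing strength, with ranks from 881 to 2619 of 3396. The remaining sites at 11179236 and 11185784 had signals of 221 and 193, 3988 bp upstream and 2560 bp downstream of the third TSS. In replicate 1 the nearest summit to the site at 11194907 was 104 bp away, just past the 100 bp taken as a match, with rank 984. The other 10 shn summits had a counterpart within 100 bp in both replicates.

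**Figure D3:**
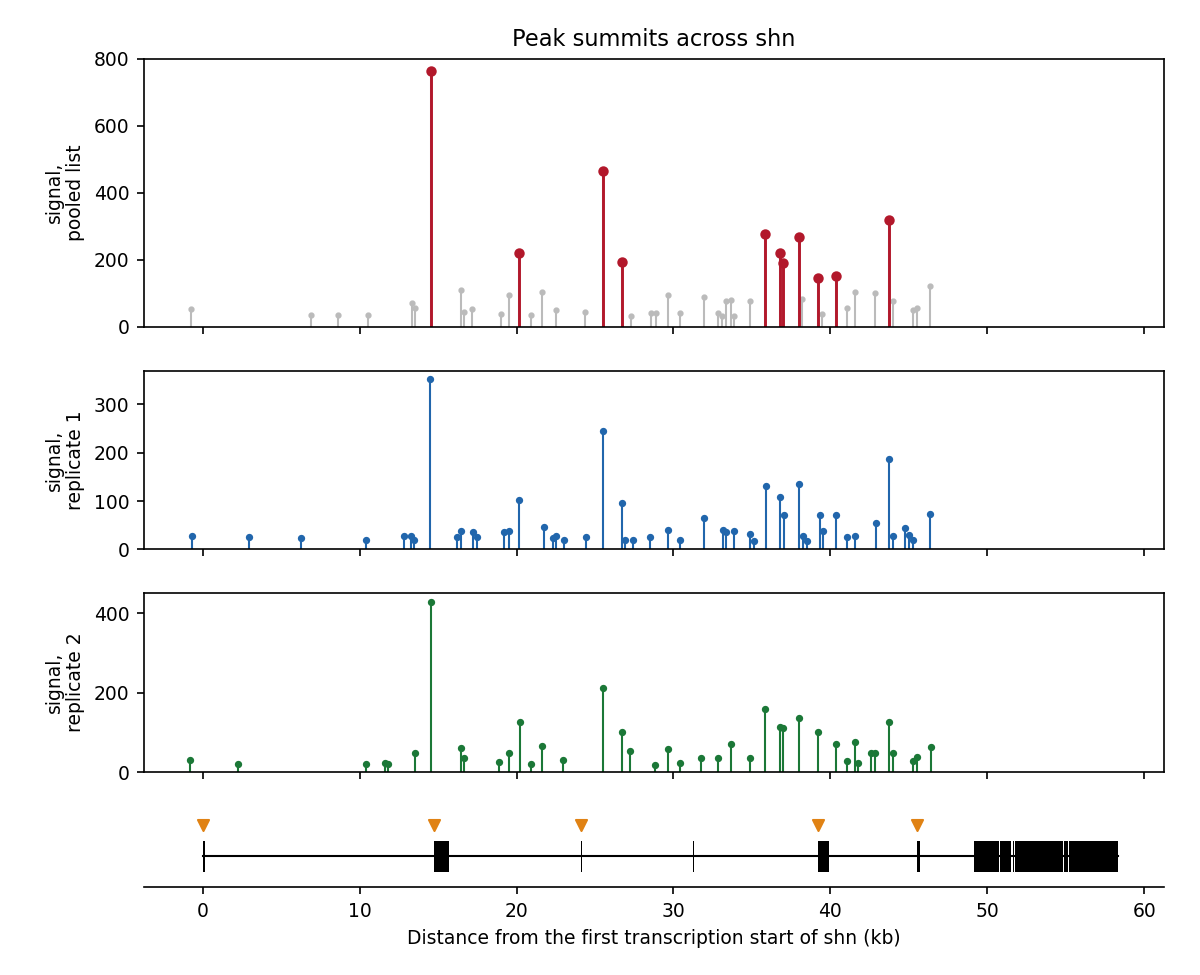
Signal of each peak summit (vertical axes, authors' score) by distance from the first shn TSS in kb, with IDR summits in red and weaker pooled summits in grey in the top panel, then replicate 1, replicate 2 and the gene model (boxes are exons, triangles are TSSs). The summit 14536 bp from the first TSS is the highest in all 3 panels, and the run from 35821 to 40374 bp surrounds the fourth TSS.

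Among the ligands, dpp (FBgn0000490, 2L from 2428372 to 2459823) held a single IDR summit and gbb none. The dpp summit at 2433661 was 5289 bp downstream of the first of 4 TSSs, in the 26006 bp first intron of transcript dpp-RA, with a signal of 251 (rank 1013). It ranked 1090 in replicate 1 and 1188 in replicate 2, so the replicates placed it nearly alike. The other 14 pooled summits of dpp were weaker, the highest being 94 bp downstream of the third TSS at rank 4832 of the pooled list. In gbb (FBgn0024234) the pooled list and replicate 1 had no summit.

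The antagonist gene sog (FBgn0003463, X from 15603283 to 15633434, minus strand) held 3 IDR summits, all in the 10523 bp first intron of transcript sog-RE. They lay 3471, 7075 and 10975 bp downstream of the inner TSS, with signals of 145, 184 and 135. The middle site was the highest of the 3, at rank 1775, and ranked 1267 in replicate 1 and 3051 in replicate 2. The site 10975 bp downstream, at rank 3019, was the lowest IDR summit of all 10 genes. Neither TSS of sog had an IDR summit within 500 bp.

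The type I receptor gene tkv (FBgn0003716, 2L from 5219000 to 5271384, minus strand) had 37 pooled summits and 3 in the IDR list. A pair of these lay at internal TSSs, 27 bp upstream of the TSS at 5237362 (signal 188, rank 1706) and 91 bp downstream of the TSS at 5242620 (signal 157, rank 2326). The first of this pair ranked 1716 and 1997 in the replicates, while the second ranked 1595 in replicate 1 and 4579 in replicate 2. The highest tkv site, at 5256636 with a signal of 223 (rank 1251), was 12497 bp upstream of its nearest own TSS in the 29759 bp first intron. Its nearest TSS of any gene was that of lncRNA:CR44744, 2306 bp away. The type II receptor gene put (FBgn0003169, 3R from 14619030 to 14625703) had no IDR summit. Its highest pooled summit, in intron 1 and 1475 bp from the TSS, had a signal of 121 at rank 3683. That site ranked 6419 in replicate 1 and 2300 in replicate 2, inside the 3396 highest of the second replicate alone.

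The threshold of the IDR list fell between close values in these genes. The lowest IDR summit, that of sog, had a signal of 135, and the highest summits just outside were 124 in tkv (pooled rank 3532), 123 in shn (rank 3545) and 121 in put.

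Of the Smad genes, Mad (FBgn0011648, 2L from 3146056 to 3159643, minus strand) had 1 IDR summit at 3153409. It lay 656 bp upstream of the inner TSS, in the 10214 bp first intron, with a signal of 258 (rank 963) and ranks of 861 and 1229 in the replicates. Dad (FBgn0020493, 3R from 17054007 to 17070408) had 3. The first, 41 bp downstream of the outer TSS in the 5′ UTR, had a signal of 206 and ranked 945 in replicate 1 and 2347 in replicate 2. The others formed a pair 201 bp apart in intron 5. The stronger of the pair, at 17065184, was the highest member site outside shn, with a signal of 367 (rank 502) and ranks of 639 and 539 in the replicates. Its neighbour at 17065385 (signal 197, rank 1563) differed between them, at rank 1051 in replicate 1 and 6567 in replicate 2.

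Med (FBgn0288966, 3R from 31611046 to 31615375), the partner Smad of Mad, had an IDR summit 1178 bp upstream of its TSS at 31609868. This site was inside the neighbouring gene CycG, which encodes a cyclin, and 53 bp upstream of a CycG TSS, so the site is nearer to that gene than to Med. Its signal was 138 at rank 2911, with rank 3812 in replicate 1 and 2431 in replicate 2. The repressor gene brk (FBgn0024250, X from 7307939 to 7311132) had 1 IDR summit at 7307250, 689 bp upstream of its only TSS. This site was inside the annotated spans of CG1677 and lncRNA:CR44357. The signal of the brk summit was 216 at rank 1337. The nearest replicate 1 summit ranked 2002 and the nearest replicate 2 summit, 94 bp away, ranked 4810. Replicate 2 had a higher summit in the window, 794 bp upstream of the TSS at rank 958.

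**Figure D4:**
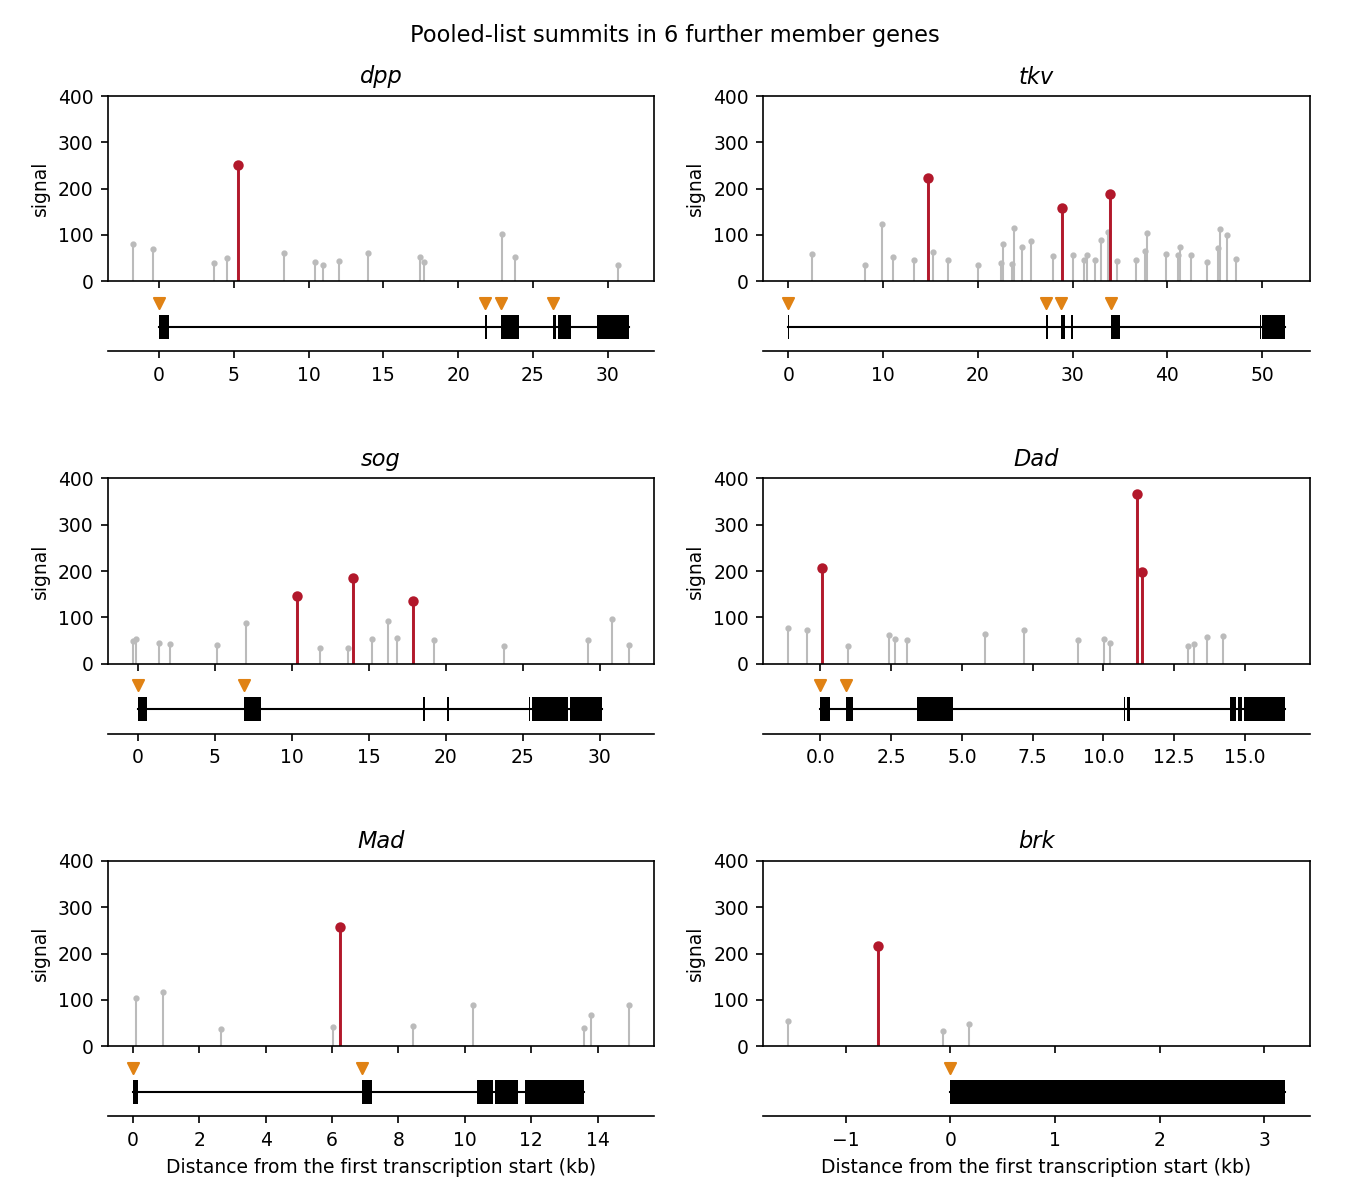
Signal of pooled summits (vertical axes, authors' score, all drawn to 400) by distance from the first TSS in kb for dpp, tkv, sog, Dad, Mad and brk, with IDR summits in red, weaker summits in grey, exons as boxes and TSSs as triangles. Red summits are mostly in introns; those within 500 bp of a TSS are 2 in tkv and 1 in Dad.

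The bases around 6 member summits are shown because they are the highest ranked outside shn among those in no UTR of their own gene. The sites of shn, several of which rank higher, are not shown. Each is 101 bases of the Release 6 reference (dm6) on the plus strand, centred on the summit. Capitals mark matches to the motifs and 8-letter words described after them. The regions are, in order, chr3R:17065134-17065234 and chr3R:17065335-17065435 in Dad, chr2L:3153359-3153459 in Mad, chr2L:2433611-2433711 in dpp, chr2L:5256586-5256686 in tkv and chrX:7307200-7307300 in brk.
Dad, stronger intron 5 site: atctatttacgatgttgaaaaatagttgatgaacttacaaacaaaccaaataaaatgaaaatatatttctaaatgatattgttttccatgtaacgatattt
Dad, weaker intron 5 site: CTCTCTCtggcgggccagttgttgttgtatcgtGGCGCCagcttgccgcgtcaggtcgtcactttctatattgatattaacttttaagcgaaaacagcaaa
Mad: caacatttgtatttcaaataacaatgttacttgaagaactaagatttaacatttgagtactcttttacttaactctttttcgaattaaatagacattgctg
dpp: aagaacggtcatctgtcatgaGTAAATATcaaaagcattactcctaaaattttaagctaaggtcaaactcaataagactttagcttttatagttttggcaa
tkv: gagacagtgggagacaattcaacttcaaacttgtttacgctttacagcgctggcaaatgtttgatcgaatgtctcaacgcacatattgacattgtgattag
brk: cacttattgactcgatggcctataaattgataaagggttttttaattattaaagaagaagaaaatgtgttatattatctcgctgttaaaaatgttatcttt

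The GC content of these stretches was 21.8% at the stronger Dad site, 25.7% at both Mad and brk, 30.7% at dpp, 40.6% at tkv and 47.5% at the weaker Dad site. Over all 24 member summits the median was 34.7%, near the 33.7% of the 3372 other IDR summits, and windows centred 300 bp to either side had a median of 42.6% in both sets. The medians at the summits were thus below those of the flanking windows in both sets, while single member summits ranged from 21.8% to 53.5%.

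Motifs of the pathway's own factors and of other embryonic factors were counted at the member summits beside the share of other IDR summits that hold them. Matches were sought on both strands within 50 bp of a summit, with N for any base. The Brk site, taken as GGCGNC or GGCGNT with N limited to C or T, was present at 2 of 24 member summits, the tkv promoter site at 5237389 and the weaker Dad site. It was found at 7.68% of other IDR summits and 10.2% of the windows 300 bp away. The GAGA factor motif GAGAGAG was at the same 2 summits, against 2.22% of other IDR summits and 3.80% of the flanking windows. The GC-rich Mad site GCCGNCGC, the palindromic Smad box GTCTAGAC, the Zelda motif CAGGTAG, the DRE motif TATCGAT and the E-box CAGCTG each had 0 matches at the 24 summits. At other IDR summits these ranged from 0% for the Smad box through 0.504%, 0.652% and 1.60% for the Mad site, Zelda and DRE to 4.18% for the E-box. Within 100 bp, the Mad site was found at 1 member summit, the weaker Dad site, and DRE at 2.

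The silencer element of Mad, Med and Shn was searched as GNCGNC followed after any 5 bases by GTCTG. It was absent within 50 bp of all 24 member summits. It was present at 3 of 3372 other IDR summits (0.0890%) and in 3 of 6744 flanking windows (0.0445%). The brk window held 1 match, 414 bp from its IDR summit, and the shn window 2, the nearer being 847 bp from an IDR summit. The windows of tkv and sog held 1 each, 6179 and 1732 bp away, and the other 6 windows none. Per 10 kb of window this was 1.39 in brk, 0.321 in shn, 0.293 in sog and 0.177 in tkv, each from only 1 or 2 matches. Over the chromosome arms such matches occurred at 0.0601 per 10 kb.

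The 8-letter words most concentrated at IDR summits outside the member windows were TAGGTAAA, AATATTGA, ACCGGAAA, ATATTTAC and AATATTTG, at 4.16 to 5.20 times their share in the windows 300 bp away. They were picked for the highest ratio in these same summits. Neither the ratios nor the motif shares were adjusted for GC content, with medians of 33.7% at these summits and 42.6% in their flanking windows. At least 1 of these 5 words, on either strand, was within 50 bp of 11.2% of those summits and in 2.85% of the flanking windows. Among the member summits only the dpp site had one (GTAAATAT, the reverse complement of ATATTTAC), 1 of 24.

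The member sites were recovered in both replicates about as often as the list at large. A summit within 100 bp was present in the relaxed lists of both replicates for 23 of 24 sites (95.8%), the exception being the shn site at 11194907. Over the IDR list this share was 94.5%. When the counterparts had to be among the 3396 highest of each replicate, 19 of 24 (79.2%) were recovered, beside 66.5% of the list. The IDR list was drawn from both replicates, so these shares follow in part from that selection. Of the sites whose nearest replicate summit ranked below 3396, the one in Med did so in replicate 1, and those of brk, tkv at 5242529 and Dad at 17065385 in replicate 2. The 24 sites had a median signal of 211, against 188 in the whole list, and the 2 highest of them, at ranks 109 and 312, were both in shn.

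**Figure D5:**
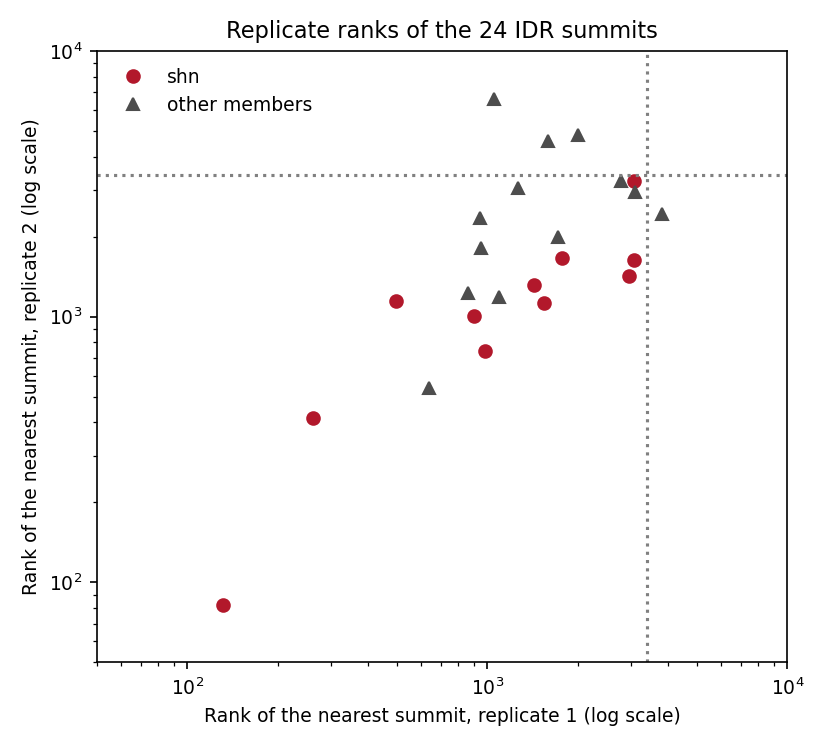
Rank of the nearest summit in replicate 1 (horizontal axis, log scale) and replicate 2 (vertical axis, log scale) for the 24 IDR summits, with shn as circles, the other members as triangles and dotted lines at rank 3396. The highest shn site is at ranks 131 and 82, and 3 sites lie above the horizontal line and 1 to the right of the vertical one.

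Few of the member sites were at promoters. Of the 24 summits, 19 were in introns, 3 in a 5′ UTR and 2 upstream of the gene. The same split over all IDR summits is not given here. Within 500 bp of a TSS of the same gene there were 5 summits, in shn, tkv and Dad. These 3 of 10 members compare with 10.1% of all protein-coding genes that had an IDR summit so placed. That share was not split by gene length or by number of TSSs, of which shn has 5, tkv 4 and Dad 2. Med, brk, put and gbb, with 1 TSS each, had no summit so placed, nor had dpp with 4 or Mad and sog with 2. Counting TSSs of any gene, 6 of the 24 (25.0%) were within 500 bp, the sixth being the Med site at CycG, beside 42.6% of all IDR summits. A distance over 1000 bp from an own TSS was found for 17 of 24 (70.8%). Over the whole IDR list, 46.3% of summits were over 1000 bp from a TSS of any gene. That is a stricter measure, so these shares cannot be compared directly.

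A pair of peaks appeared in replicate 2 alone, at gbb and Med. At gbb (2R from 23851562 to 23853247) replicate 2 had a peak with its summit at 23850399, 1163 bp upstream of the TSS and 69 bp from a TSS of asRNA:CR45928. Its signal of 383 placed it at rank 114 of that list. At Med, replicate 2 had a peak with its summit at 31616156, 781 bp past the end of the gene and 4 bp from a TSS of Mnat9, with a signal of 367 and rank 128. Neither had a summit within 500 bp in replicate 1 or in the pooled list. These were 2 of 7 such peaks among the 200 highest of replicate 2, and replicate 1 had 0 among its 200 highest. Among the 3396 highest, 120 peaks of replicate 2 (3.53%) and 60 of replicate 1 (1.77%) stood alone in this way.

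The wider pathway was covered by a list of further genes, also drawn up with results of these data known. Of 45 other genes of BMP and activin signalling and their targets, 15 (33.3%) had an IDR summit in their window, beside 20.7% of all protein-coding genes. Their windows had a median of 12.2 kb. By window length, 2 of 17 had one under 10 kb, 8 of 21 from 10 to 30 kb and 5 of 7 from 30 kb upwards, beside the 14.9%, 38.0% and 54.3% of all genes. Of the other ligand genes 1 of 5 had an IDR summit, myo, which encodes an activin-like ligand (signal 223). Of the other receptors these were babo, the type I activin receptor (354), and wit, a type II BMP receptor with a summit 7 bp upstream of its TSS (138), 2 of 3. The babo summit was 1101 bp upstream of that gene and 152 bp from a TSS of another.

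Of the extracellular and matrix regulators 4 of 13 had an IDR summit. They were magu, which encodes the feedback regulator Pentagone (signal 466, 297 bp upstream of a TSS), the glypican genes dlp (370) and dally (215), and cv-2, whose product binds BMPs (297). The 7 without a summit in any peak list were tsg, tld, cv, cv-d, srw, Col4a1 and vkg. Of 7 intracellular modulators 3 had one, led by gro, which encodes a corepressor used by Brk (526, rank 231, 165 bp upstream of a TSS). The gro summit had no match in replicate 2, where the nearest summit ranked 16342. Snoo, the fly Ski and Sno homologue, had 6 IDR summits (highest signal 282) and the kinase gene nmo had 3 (207). Of 17 target genes 5 had an IDR summit. Their highest signals were 1915.2 in ush, 435 in tin, 433 in tup and 246 in lab, and 135 in vg, which was added after its value was seen. The highest ush summit was 4864 bp from a TSS of ush and 1396 bp from one of cbt, and the tup summit was 126 bp from a TSS of CG10602. The other 12 target genes had no IDR summit. The ush window, 68.3 kb long, held 11 IDR summits, the same number as shn, and all 11 had a match in both replicates.

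The genes most like shn outside the pathway lists, by number of IDR summits and then by window length, were sbb, Hr4 and CHES-1-like. They had 11, 10 and 10 IDR summits in windows of 83.1, 70.0 and 31.0 kb, or 1.32, 1.43 and 3.22 per 10 kb. In the pooled list they had 57, 24 and 25 summits, against 47 for shn.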

How the data were processed

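ChIP-seq peaks of 2 biological replicates were deposited as narrowPeak lists on dm6, per the file headers and descriptions. The authors deposited a relaxed list for each replicate, a relaxed pooled list and an IDR list. The deposited signal score per peak has no stated scale and was used to rank peaks within a list. The deposited −log10 q-value was read but decided nothing. The sources used here do not name the peak caller, the aligner or the IDR threshold. Read depth is unknown. Summits (peak start plus offset, written 1-based) were placed on Release 6 with Ensembl release 115 gene models (BDGP6.54), transposable elements left out, in Python 3.11.15. All peaks and genes fell within its chromosome arms, and all 10 member symbols matched. The members, gene lists and motifs were chosen with earlier results of these data known. The named items were all members with every IDR summit, up to 4 bound genes per pathway list by signal and the 3 genes most like shn. Also named were the 8 motifs and the 5 words of highest ratio at 1% or more of summits. Named outside this rule were vg and the 7 extracellular regulators without a summit in any peak list. Shares are given without intervals, because the members were chosen on these data and sites of the same gene are not independent draws. Counting and placing were tested on simulated data. There is 1 group and no comparison between conditions. Alternatives were other flanks, match and promoter distances, motif widths, the upper part of the IDR list, each replicate alone and close summits counted once. The last setting counted summits within 200 bp once and left 24. It could merge none, because the closest neighbours were 201 bp apart in Dad and 217 bp apart in shn. Whether the counts hold under a wider merge was not tested.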

Additional observations from a re-analysis of the deposited data

How the results depend on the processing

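Under the alternatives tried, 6 to 10 of the 10 genes had a strong summit and the member windows held 16 to 27 such summits. Shares of all genes are not given for any alternative, so these counts stand without a background. From the highest peaks of a single replicate, 7 genes (replicate 1) or 10 (replicate 2) and 25 or 27 summits were counted. In replicate 2, gbb was counted only through the peak found in that replicate alone. Without shn, an alternative added after seeing the data, 13 summits were left. Recovery in both replicates was 79.2% with a match within 50 bp, 100% within 200 bp and 79.2% among the highest 3396 peaks of each replicate. The highest peaks of a single replicate match their own list by construction. For them the value is recovery in the other replicate only, and it was 81.5% to 96.0%. Within 1000 bp of an own TSS, 5 members had a summit in place of 3. From either replicate's peaks, 3 members were so placed. Of the other pathway genes 12 to 18 had one, 15 and 16 from either replicate. No paired analysis was possible because there is only 1 group. Depth could not be weighed, since the lists hold no counts.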
